A study of Mus musculus with 18 samples.

Results

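The messenger RNA of 35 genes, named for or linked to protein import into mitochondria, was followed in mouse CD4+ T cells and their antigen-presenting P13.9 cells. The members were all named genes of the deposited table whose symbol starts with Timm or Tomm, or with Chchd followed by a digit, together with Hspd1, Hspe1 and Hspa9. The rule took 35 of 15697 named genes, and 1 further row with a pseudogene symbol, Chchd2-ps, was dropped. The choice rested on symbols and not on measured values. Some members, such as Timmdc1, Chchd1, Chchd3 and Chchd10, are therefore not parts of the import machinery.

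The data came from 18 QuantSeq libraries, which read the 3′ ends of transcripts, in 6 groups of 3. One group held P13.9, a line of fibroblasts that served as antigen-presenting cells. A second group held naive CD4+ T cells from spleen and lymph node of mice with the transgenic T cell receptor 5CC7. The other 4 groups held 5CC7 CD4+ T cells after 4 days with P13.9 cells that carried the peptide pPCC, which this receptor recognizes, at 0.01, 0.1, 1.0 or 10 µM. All T cell groups shared the 5CC7 receptor, and no activated group lacked peptide. The mouse strain, the age of the mice, the number of animals or cultures and any step that removed P13.9 cells from the T cells are not given in the labels. The p-values therefore measure the spread between these samples, which may be technical.

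Nearly all mitochondrial proteins are made in the cytosol and must be imported. The translocase of the outer membrane, whose subunits are named Tomm, takes them in through a channel formed by Tomm40. Proteins with a presequence then pass the inner membrane through a translocase built around Timm23 and Timm17, pulled by a motor in which Hspa9, the heat shock protein 70 of the matrix, does the work. Carrier proteins are escorted by small Timm chaperones to a second translocase around Timm22. In the matrix, Hspd1 and Hspe1 form the chaperonin that folds new arrivals. Many CHCHD proteins carry paired cysteines that are oxidized on entry by the Chchd4 pathway. T cells are known to enlarge their mitochondria after activation, and import supplies the proteins for it.

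Of the 35 members, 9 carry a Tomm symbol and are grouped as the outer membrane translocase, although Tomm34 among them is a cytosolic cochaperone. The presequence translocase with its motor has 7. Another 8 belong to the carrier pathway, 2 to the matrix chaperonin and 8 to the CHCHD family, and Timmdc1, an assembly factor of respiratory complex I, stands alone. All 35 have a position in the RefSeq annotation of GRCm38, and 29 have a promoter sequence there. The stretch upstream of Chchd10 is shown because Chchd10 had the largest change of the tested members between 10 and 0.01 µM. It covers the 250 bases before the annotated start, chr10:75932880-75933129 on the plus strand of GRCm38, with 2 copies of TGATGCAA in capitals:

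Chchd10: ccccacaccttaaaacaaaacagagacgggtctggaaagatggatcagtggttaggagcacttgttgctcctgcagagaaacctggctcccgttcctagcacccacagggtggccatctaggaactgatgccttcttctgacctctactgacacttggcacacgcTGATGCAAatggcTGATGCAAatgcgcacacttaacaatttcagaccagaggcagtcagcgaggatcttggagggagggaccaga

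The capitals are the reverse complement of TTGCATCA, the composite letters known to be bound by pairs of ATF4 and C/EBP proteins. They begin 85 and 72 bases before the start. In windows of 300 bases, from 250 before to 50 after the start and on both strands, TTGCATCA occurred at 1.032% of the 27025 genes with a promoter and at 1 of the 29 members, Chchd10. A gene can have more than 1 such window, and a match in any of them was counted. The pair Hspd1 and Hspe1 lies head to head, and their annotated spans share 96 bases. The stretch shown next lies inside the annotated Hspd1 span, which ends at 55088243. The Hspd1 window at that end, chr1:55088194-55088493, does not hold the stretch. Another Hspd1 window, chr1:55087883-55088182, and the Hspe1 window do. These 30 bases, chr1:55088053-55088082 on the plus strand of GRCm38, are shown because the chaperonin genes are described together:

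Hspe1: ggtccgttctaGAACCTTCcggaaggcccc

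The capitals match GAANNTTC, the inverted repeat of heat shock elements, which occurred at 9.036% of genes and at 3 of the 29 members, Hspd1, Hspe1 and Timm9. CCGGAAG, the letters bound by ETS proteins, occurred at 9.928% of genes and at 13 members, and 2 of its matches overlap the GAANNTTC match shown. CACGTG, an E-box, occurred at 8.093% of genes and at 7 members. The palindromic NRF1 motif occurred at 1.073% of genes and at 0 of the 29 members. These matches describe letters in a window and are not evidence of binding.

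Values are normalized read counts, the authors' median-of-ratios values, and levels are compared only between groups for the same gene. Naive libraries held 27784 to 97752 reads in named genes, P13.9 libraries 201620 to 351978 and activated libraries 156941 to 732987. A single read was worth 2.17 to 6.55 normalized counts in a naive library and 0.167 to 0.872 elsewhere, so low naive values are coarse. Replicates correlated at 0.640 to 0.773 across genes in the naive group and at 0.911 to 0.974 in the other groups. The 8 T cell markers summed to 197 to 271 in naive cells, 150 to 172 at 0.01 µM, 247 to 292 at the other doses and 2.21 to 6.02 in P13.9. Of 16 fibroblast markers 11 were listed, and their sum was 551 to 633 in P13.9, 31.2 to 49.8 in naive cells, 112 to 177 at 0.01 µM, 27.1 to 51.4 at 0.1 µM, 19.98 to 37.3 at 1.0 µM and 8.76 to 16.1 at 10 µM. Over 6 of these markers, the median ratio of a library's value to the P13.9 mean served as the P13.9 share. This is a ratio of normalized values and not a measured fraction of the RNA. The share came to 31.9% ± 7.55 (SD, n = 3) at 0.01 µM, 9.03% ± 4.83 at 0.1 µM, and 4.37% ± 1.59 at 1.0 µM. It was 2.25% ± 0.839 at 10 µM. The same estimate read 3.45% ± 0.695 in naive cells, which had met no P13.9 cells, and this is its background. The 6 myeloid markers summed to 117 to 160 in naive cells and 24.1 to 38.3 in activated cells, both CD8 markers were at 0 in naive cells, and of 5 B cell markers the 1 that was listed had 0 naive reads. The sample numbers in the labels fall into 2 runs, one with P13.9, naive, 1.0 and 0.01 µM and the other with 10 and 0.1 µM. What the runs stand for is not given. Cells at 10 and 0.1 µM are compared with naive cells across these runs, and run and group cannot be told apart there.

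The first question was which members differed between activated and naive T cells. At 10 µM, 11 of the 27 members that could be tested were higher and 0 were lower, by limma on log2(value + 1) with Benjamini-Hochberg adjustment over 7263 genes and a call at an adjusted p below 0.05. Of all genes tested, 57.1% were called and 24.3% were called higher. At 1.0 µM 9 members were higher and 0 lower (54.7% of all genes called, 23.3% higher). At 0.1 µM 9 were higher and 1 lower (56.3% of all genes called, 24.9% higher and 31.4% lower), and at 0.01 µM 9 were higher and 0 lower (49.4% and 21.7%). The median log2 change of the 27 members was 0.90, 0.56, 0.63 and 0.69 at 10, 1.0, 0.1 and 0.01 µM, against −0.07, −0.05, 0.01 and 0.03 for all genes tested. With Tomm40l, which had 0 naive reads, set to its lower bound, the members' medians were 0.86, 0.48, 0.55 and 0.69. The 4 comparisons share the same naive libraries and are not independent of each other. Members that passed the filter only through activated cells had to differ, so these counts describe the list and support nothing further. In bulk RNA, fewer cells with a transcript and less of it per cell cannot be told apart. The scaling sets where no change lies: with edgeR on recovered reads the median of all genes against naive was 0.33 to 0.39, with DESeq2 0.26 to 0.30 and after quantile normalization 0.18 to 0.21. The share of all calls that were higher was 42.6% to 44.2% here, 54.0% to 58.0% with edgeR, 54.1% to 55.1% after quantile normalization and 51.7% to 57.3% for genes with a mean of at least 20. It was 48.1% to 49.5% with DESeq2, 41.0% to 46.0% with array weights and 42.3% to 43.3% with the P13.9 share subtracted. The part that the myeloid markers, which were higher in naive cells, have in these differences was not tested.

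**Figure D1:**
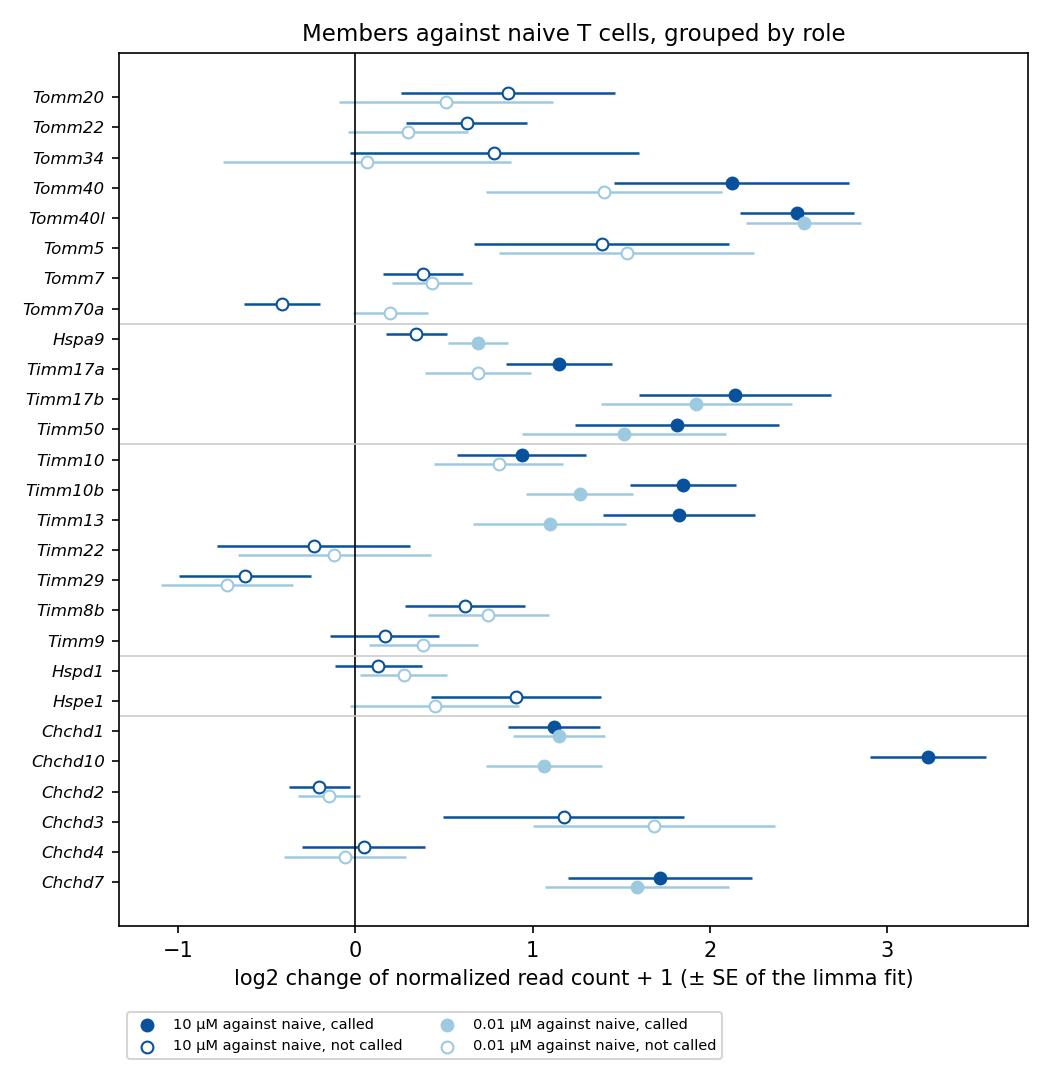
Log2 change of normalized read count + 1 against naive T cells (x axis, ± SE of the limma fit) for the 27 tested members, grouped by role, at 10 µM (dark) and 0.01 µM (light); filled points passed an adjusted p of 0.05. Chchd10 lies at 3.23 at 10 µM and 1.06 at 0.01 µM, and no filled point lies left of 0.

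Chchd10 encodes a small protein of the intermembrane space that is linked to the organization of cristae and to inherited motor neuron disease. It lies at chr10:75933130-75937750 on the plus strand of GRCm38, and its last 32 bases overlap the annotated Gm867 on the other strand. Its normalized read counts were 6.55, 7.81 and 2.17 in naive cells and 8.44, 14.7 and 12.8 in P13.9. In activated cells they were 9.88, 10.9 and 13.8 at 0.01 µM, 29.0, 31.4 and 19.1 at 0.1 µM, 22.0, 24.1 and 24.9 at 1.0 µM, and 58.5, 48.6 and 57.8 at 10 µM. All 3 libraries at 10 µM lay above every other library, and all 6 at 0.1 and 1.0 µM lay above every library at 0.01 µM, of naive cells and of P13.9. The means were 5.51 ± 2.96 (SD, n = 3) in naive cells, 11.5 ± 2.05 at 0.01 µM, 11.99 ± 3.22 in P13.9, 23.7 ± 1.47 at 1.0 µM, 26.5 ± 6.53 at 0.1 µM and 55.0 ± 5.50 at 10 µM. In that order the neighbours 0.01 µM and P13.9, and the neighbours 1.0 and 0.1 µM, overlapped.

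Against naive cells Chchd10 rose at each dose, by 3.23 ± 0.33 (SE) on the log2 scale at 10 µM with an adjusted p of 9.18e-07, by 2.05 at 1.0 µM, by 2.18 at 0.1 µM and by 1.06 at 0.01 µM, where the adjusted p was 0.0148. The naive value rests on 4 reads in all against 651 reads at 10 µM, a ratio of 12.1 per unit of depth with an exact 95% counting interval of 4.71 to 44.6. At 0.01 µM the ratio was 2.41 (0.923 to 8.98), and the call was lost without naive replicate 3 or 0.01 µM replicate C, with adjusted p up to 0.0598.

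Between doses, Chchd10 was 2.17 ± 0.33 higher on the log2 scale at 10 µM than at 0.01 µM, with an adjusted p of 0.000814 in limma. It was the 1 member called of 27 in that comparison, where 8.15% of all genes were called and 1.9% were called higher. The reads gave a ratio of 5.02, whose counting interval ran from 4.19 to 6.05. Leaving out any of the 6 libraries kept the adjusted p between 0.00414 and 0.00942. The P13.9 share was also subtracted from each T cell library, which was then scaled back to its former total. The change was then 2.11, with an adjusted p of 0.00231. The 10 and 0.01 µM libraries lie in different runs of sample numbers. Within runs, Chchd10 was 1.05 higher at 10 than at 0.1 µM, with an adjusted p of 0.527, and 0.99 higher at 1.0 than at 0.01 µM, with an adjusted p of 0.114. The 0.1 µM libraries stood 1.11 above those at 0.01 µM, with an adjusted p of 0.0626, and the 10 µM libraries 1.18 above those at 1.0 µM, with an adjusted p of 0.43. These 4 steps did not pass the test in the fit that includes the naive libraries. In a limma fit of the 12 activated libraries alone, adjusted over 5897 genes, all 4 steps passed, with adjusted p-values of 0.00552, 0.00133, 0.00057 and 0.00273 in the order given here. In that fit 2.26%, 22.9%, 29.1% and 2.24% of all genes were called in the same comparisons, and 32.5% between 10 and 0.01 µM. Chchd10 also exceeded its P13.9 level at 10 µM, by 2.14 with an adjusted p of 3.93e-05.

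**Figure D2:**
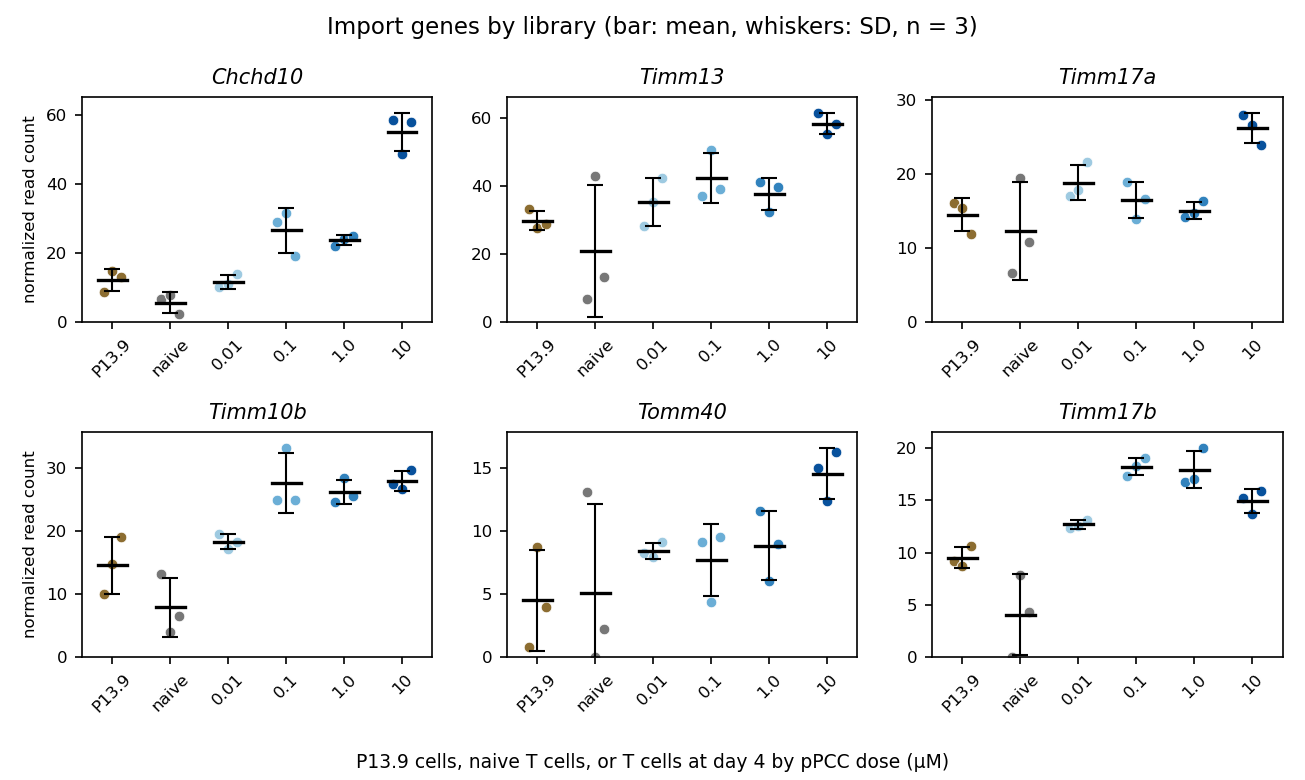
Normalized read count (y axis, from 0) of 6 members in each library of P13.9 cells, naive T cells and T cells activated at 4 pPCC doses in µM; points are libraries, bars are means and whiskers are SD (n = 3). The Chchd10 points at 10 µM, 48.6 to 58.5, stand above all others, and the naive points of Timm13, Tomm40 and Timm17b are widely spread.

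Chchd5 had the same order of T cell means as Chchd10 at levels too low to test, 0.722 in naive cells and 1.71, 2.64, 3.19 and 4.37 at 0.01, 1.0, 0.1 and 10 µM. Its groups overlapped, with single libraries from 0.927 to 2.70 at 0.01 µM and from 2.40 to 5.93 at 10 µM. Chchd1, a protein of the small subunit of the mitochondrial ribosome, had 26.2, 19.5 and 13.0 in naive cells, 37.2, 42.2 and 50.6 at 0.01 µM, 41.8, 39.2 and 28.2 at 0.1 µM, 39.4, 44.1 and 27.1 at 1.0 µM, and 42.6, 37.7 and 46.4 at 10 µM. Every activated library lay above every naive library. Chchd1 rose by 1.12 ± 0.26 at 10 µM against naive, with an adjusted p of 0.00189 in limma, and by 0.90, 0.89 and 1.15 at 1.0, 0.1 and 0.01 µM. Chchd7, thought to be the counterpart of a yeast copper-pathway protein, was called higher at each dose but had 1 naive read in all. Its read ratio at 10 µM was 4.40, with 0.759 to 177 as the counting interval, and its call at 10 µM was lost without naive replicate 3 (adjusted p = 0.0508). The call at 0.01 µM was lost without naive replicate 1 or 3 or 0.01 µM replicate A, with adjusted p up to 0.0849.

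Chchd2, the close relative of Chchd10 in the same family, was measured with 287 naive reads, far more than Chchd10. It passed no test against naive cells in the main limma fit. Its means were 322 ± 33.1 in naive cells, 289 ± 11.5 at 0.01 µM, 319 ± 23.1 at 0.1 µM, 350 ± 101 at 1.0 µM, 278 ± 10.3 at 10 µM and 349 ± 27.7 in P13.9. At 10 µM its change against naive was −0.20 ± 0.17. Its direction turned with the scaling: edgeR on recovered reads called it higher at 10, 0.1 and 0.01 µM, by 0.49, 0.63 and 0.50 with adjusted p-values of 0.0291, 0.00693 and 0.0317. DESeq2 called it higher at 10 and 0.1 µM, by 0.44 and 0.56, and limma after quantile normalization at 0.01 µM, by 0.54. Chchd4, the oxidoreductase that traps cysteine-rich proteins in the intermembrane space, had means between 9.23 at 1.0 µM and 13.3 in naive cells and at 10 µM, and its largest change against naive was −0.44 ± 0.35 at 1.0 µM (adjusted p = 0.301). Chchd3, a subunit of the cristae-organizing MICOS complex, had 13.1, 0 and 8.66 in naive cells and means of 10.7 to 15.6 at the 4 doses. Its change of 1.68 ± 0.68 at 0.01 µM missed the threshold, with an adjusted p of 0.0518. Chchd6, like Chchd5, stayed too low for the test in T cells, and the pair had 0 and 1 naive reads.

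In the presequence translocase, 3 of 4 tested members were higher at 10 µM than in naive cells, beside 24.3% of all genes. Timm17b, a channel subunit encoded on the X chromosome, had 0, 7.81 and 4.33 in naive cells, 12.4, 12.5 and 13.2 at 0.01 µM, 17.4, 18.3 and 19.1 at 0.1 µM, 16.8, 17.1 and 19.98 at 1.0 µM, and 15.3, 13.7 and 15.9 at 10 µM. No activated library overlapped a naive one. Timm17b rose by 2.14, 2.39, 2.41 and 1.92 at 10, 1.0, 0.1 and 0.01 µM, with adjusted p-values of 0.00147 to 0.00852. The 4 naive reads gave a ratio of 3.30 at 10 µM, with a counting interval of 1.27 to 12.2.

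Timm17a, the other form of that channel subunit, had 6.55, 19.5 and 10.8 in naive cells, 17.1, 17.9 and 21.6 at 0.01 µM, 18.9, 13.95 and 16.6 at 0.1 µM, 14.2, 14.7 and 16.3 at 1.0 µM, and 28.0, 26.7 and 23.9 at 10 µM. Every library at 10 µM lay above every other library. Timm17a rose by 1.15 ± 0.30 at 10 µM against naive, with an adjusted p of 0.00408, and was 0.82 above P13.9, with an adjusted p of 0.0289. Its step from 1.0 to 10 µM, 0.76 ± 0.30, had an adjusted p of 0.791 in the fit of 15 libraries and 0.0273 in that of the 12 activated libraries.

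Timm50, the receptor that guides presequences to the channel, had 0, 7.81 and 4.33 in naive cells, 8.71, 8.58 and 10.8 at 0.01 µM, 7.32, 15.7 and 9.11 at 0.1 µM, 13.1, 11.4 and 10.8 at 1.0 µM, and 11.9, 12.3 and 10.9 at 10 µM. Only naive replicate 2 reached into the activated range. Timm50 rose by 1.81, 1.82, 1.63 and 1.52 at 10, 1.0, 0.1 and 0.01 µM, with adjusted p-values of 0.0142 to 0.0405. Its 4 naive reads gave a ratio at 10 µM of 2.52, with a counting interval of 0.960 to 9.36 that includes no change. The calls at 0.1 and 0.01 µM were lost without naive replicate 1, with adjusted p up to 0.102 and 0.12, and also without 0.1 µM replicate B and without any 1 library at 0.01 µM. The channel subunit Timm23, its neighbour Timm21 and the motor anchor Timm44 were too low to test, with at most 2 naive reads each and no library above 5.35.

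Hspa9, which drives import as the motor and also folds proteins in the matrix, gave a different order of groups. Its values were 32.8, 42.9 and 43.3 in naive cells, 65.8, 64.5 and 62.1 at 0.01 µM, 34.1, 33.1 and 44.3 at 0.1 µM, 39.9, 36.1 and 36.0 at 1.0 µM, 52.3, 52.1 and 46.5 at 10 µM, and 80.5, 94.9 and 87.1 in P13.9. The libraries at 0.01 µM lay above all other T cell libraries, and those at 10 µM lay above all naive libraries and all at 0.1 and 1.0 µM. The order of means was 37.2 ± 6.19 at 0.1 µM, 37.3 ± 2.23 at 1.0 µM, 39.7 ± 5.98 in naive cells, 50.3 ± 3.24 at 10 µM, 64.1 ± 1.89 at 0.01 µM and 87.5 ± 7.21 in P13.9, and the 3 lowest did not differ beyond their spread. Hspa9 rose by 0.69 ± 0.17 at 0.01 µM against naive, with an adjusted p of 0.0036, and by 0.59 with the P13.9 share subtracted, with an adjusted p of 0.0206. At 10 µM its change against naive was 0.34, with an adjusted p of 0.0969.

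Hspa9 fell between 0.01 µM and the middle doses. The change from 0.01 to 0.1 µM was −0.78 ± 0.17, with an adjusted p of 0.0181, and Hspa9 was 1 of 2 members called lower there, where 5.59% of all genes were called and 3.41% were called lower. From 0.01 to 1.0 µM, within 1 run of sample numbers, it was −0.77 with an adjusted p of 0.0194, the 1 member called (4.3% of all genes called, 2.66% lower). Each of these calls was lost in 5 of 6 fits that left out 1 library, with adjusted p up to 0.0929 and 0.109. Hspa9 was highest in P13.9 cells, whose share was highest at 0.01 µM. With that share subtracted and each library scaled back to its former total, the 2 changes were −0.78 (adjusted p = 0.0243) and −0.66 (adjusted p = 0.0612). The scaling raises what remains of a library. Changes after subtraction without it, also that against naive cells, may be smaller and were not computed. In the 12 activated libraries alone, without subtraction, the adjusted p-values of the 2 changes were 0.000958 and 0.00112.

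The end doses were also set against the middle doses, a comparison chosen after the values were seen. The mean of 10 and 0.01 µM exceeded that of 1.0 and 0.1 µM by 0.60 ± 0.12 for Hspa9, with an adjusted p of 0.0293, and by 0.77 ± 0.17 for Hspd1, with an adjusted p of 0.0531. Hspa9 was the 1 member called in this comparison (0.757% of all genes called, 0.138% higher). Its call was lost in 11 of 12 fits that left out 1 library, with adjusted p up to 0.102. The 2 end doses lie in different runs of sample numbers, as do the 2 middle doses.

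Hspd1, the large subunit of the matrix chaperonin, had 13.1, 19.5 and 21.7 in naive cells, 23.6, 21.1 and 20.2 at 0.01 µM, 11.6, 9.59 and 11.2 at 0.1 µM, 14.2, 11.4 and 11.99 at 1.0 µM, 19.2, 15.8 and 24.3 at 10 µM, and 30.7, 24.1 and 22.1 in P13.9. All 6 libraries of the middle doses lay below all 6 of the end doses. Hspd1 fell from 0.01 to 0.1 µM, a change of −0.94 ± 0.24 with an adjusted p of 0.0377, and the call was lost without any 1 of the 6 libraries, with adjusted p of 0.0771 to 0.16. With the P13.9 share subtracted the change was −1.09, with an adjusted p of 0.0275. From 0.01 to 1.0 µM the change was −0.75, with an adjusted p of 0.108, and from 0.1 to 10 µM it was 0.80, with an adjusted p of 0.51. In the 12 activated libraries alone these 2 adjusted p-values were 0.00964 and 0.0333. At 0.1 µM Hspd1 was also called lower than in naive cells, a change of −0.67 with an adjusted p of 0.0293, but that change was −0.18 with edgeR and −0.14 after quantile normalization, and neither passed. It was also lost without naive replicate 2 or 3 and without 0.1 µM replicate B or C, with adjusted p up to 0.0858.

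Hspe1, the small subunit that caps the chaperonin, passed no test in the fit of 15 libraries. Its values were 6.55, 54.7 and 28.2 in naive cells, 32.2, 26.4 and 33.1 at 0.01 µM, 32.9, 32.2 and 33.1 at 0.1 µM, 23.6, 17.7 and 23.7 at 1.0 µM, 38.4, 37.7 and 51.7 at 10 µM, and 53.7, 32.8 and 38.4 in P13.9. The 3 naive libraries spanned the whole range of the activated ones, and the 10 µM libraries lay above all other activated libraries. From 1.0 to 10 µM Hspe1 differed by 0.94 ± 0.48, with an adjusted p of 0.993, and of 0.00571 in the 12 activated libraries alone. Among the doses Hspe1 had its lowest mean at 1.0 µM and Hspd1 at 0.1 µM. RefSeq lists 7 pseudogenes of Hspe1, 5 of Hspd1 and 1 each of Hspa9, Chchd2 and Timm29. Where such copies are alike in sequence they can take or lose reads in counting, so these genes are uncertain in level. How alike the copies are was not tested.

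**Figure D3:**
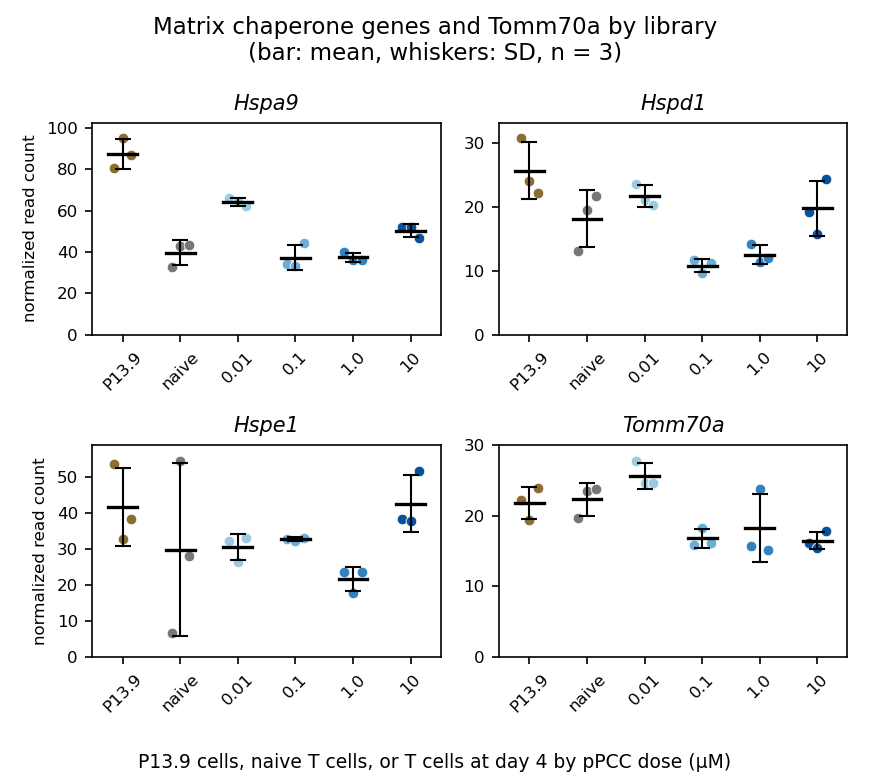
Normalized read count (y axis, from 0) of Hspa9, Hspd1, Hspe1 and the import receptor Tomm70a in each library of P13.9 cells, naive T cells and T cells activated at 4 pPCC doses in µM; points are libraries, bars are means and whiskers are SD (n = 3). Hspa9 and Hspd1 are higher at 0.01 and 10 µM than at 0.1 and 1.0 µM, and the Hspa9 points of P13.9, 80.5 to 94.9, lie above all others.

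Between 10 and 1.0 µM, and between 10 and 0.1 µM, limma called 0 of the 27 members (0.0826% and 0.0964% of all genes called). An unadjusted limma p below 0.05 was reached by 4 members in each, beside 380 and 371 of all 7263 genes tested. edgeR on recovered reads called 3 and 2 members (2.41% and 1.53% of all genes), and DESeq2 called 6 and 2 (3.25% and 2.0%). In the 12 activated libraries alone, 3 members, Chchd10, Hspe1 and Timm17a, were called between 10 and 1.0 µM, and 2, Chchd10 and Hspd1, between 10 and 0.1 µM (2.24% and 2.26% of all genes called). The pairs 1.0 against 0.01 µM and 10 against 0.1 µM share no library, and each lies within 1 run of sample numbers. Chchd10 was positive in both, at 0.99 and 1.05, while Hspa9 was −0.77 and 0.44 and Hspd1 −0.75 and 0.80.

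**Figure D4:**
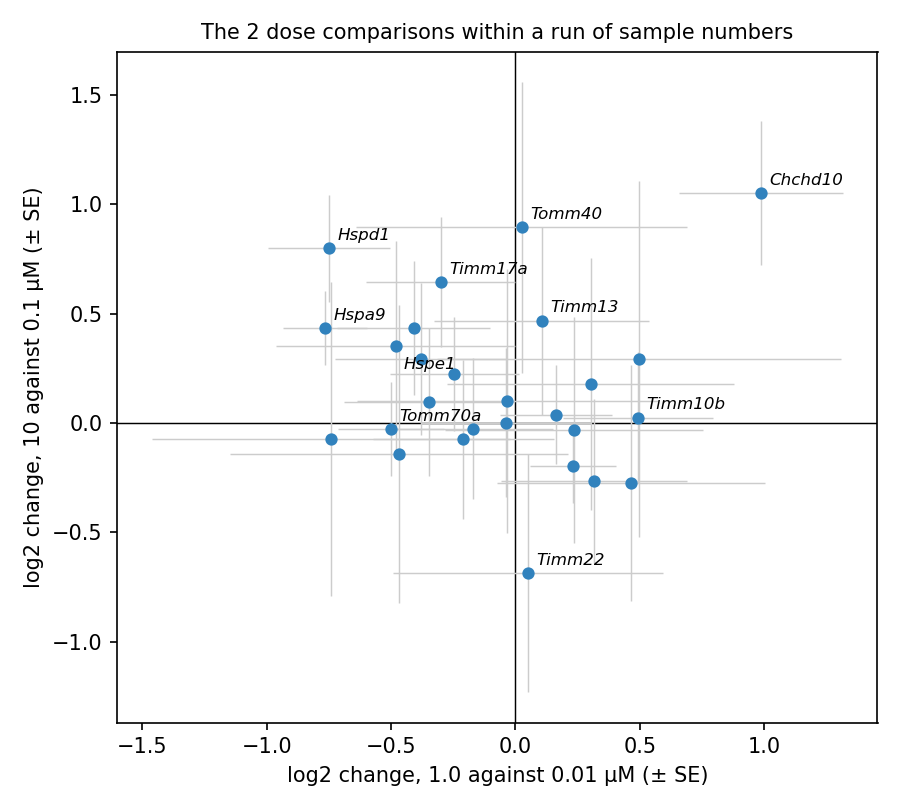
Log2 change of the 27 tested members at 1.0 against 0.01 µM (x axis) and at 10 against 0.1 µM (y axis), each within 1 run of sample numbers, with SE of the limma fit as grey lines. Chchd10 lies at the upper right, at 0.99 and 1.05, and Hspa9 and Hspd1 lie at the upper left, negative on the x axis and positive on the y axis.

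In the carrier pathway 3 of 7 tested members rose at 10 µM against naive, beside 24.3% of all genes. Timm10b, a small chaperone attached to the TIM22 complex, had 13.1, 3.90 and 6.50 in naive cells, 19.6, 17.2 and 18.2 at 0.01 µM, 24.999, 33.1 and 24.85 at 0.1 µM, 24.7, 28.4 and 25.5 at 1.0 µM, and 27.4, 26.7 and 29.7 at 10 µM. Every activated library exceeded every naive one, and those at the 3 higher doses exceeded those at 0.01 µM. Timm10b rose by 1.85 ± 0.30 at 10 µM, with an adjusted p of 9.56e-05, and by 1.76, 1.82 and 1.26 at 1.0, 0.1 and 0.01 µM. The 6 naive reads gave a ratio of 4.10 at 10 µM, with a counting interval of 1.86 to 11.3. The 0.58 between 0.01 and 10 µM had an adjusted p of 0.277, and of 0.0115 in the 12 activated libraries alone. RefSeq extends the span of Timm10b over 4973 bases of Dnhd1.

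Timm13, which pairs with Timm8 forms to escort inner membrane proteins, had 6.55, 42.9 and 13.0 in naive cells, 28.0, 35.2 and 42.2 at 0.01 µM, 36.9, 50.6 and 38.9 at 0.1 µM, 40.9, 32.1 and 39.7 at 1.0 µM, and 61.3, 55.1 and 58.0 at 10 µM. The 10 µM libraries lay above all others, and naive replicate 2 lay within the range of the lower doses. Timm13 rose by 1.82 ± 0.43 at 10 µM, with an adjusted p of 0.00212, and by 1.201, 1.36 and 1.10 at 1.0, 0.1 and 0.01 µM. The calls at 1.0, 0.1 and 0.01 µM were lost without naive replicate 1 or 3, with adjusted p up to 0.119, 0.0563 and 0.197. They were also lost without 1.0 µM replicate A or C, without 0.1 µM replicate B, and without any 1 library at 0.01 µM. Its read ratio at 10 µM was 2.82, with a counting interval of 1.77 to 4.79. From 0.01 to 10 µM it differed by 0.73, with an adjusted p of 0.361 in the fit of 15 libraries and 0.00374 in that of 12.

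Timm10, the partner of Timm9 in the soluble carrier chaperone, rose by 0.94 at 10 µM and by 1.01 at 0.1 µM, with adjusted p-values of 0.0381 and 0.0274. It had 13.1, 3.90 and 6.50 in naive cells and means of 13.3 ± 2.98, 15.6 ± 4.19, 11.3 ± 2.57 and 14.5 ± 2.39 at 0.01, 0.1, 1.0 and 10 µM. Both calls were lost without naive replicate 2 or 3. The call at 10 µM was also lost without any 1 library at that dose, with adjusted p up to 0.157, and the call at 0.1 µM without 0.1 µM replicate B or C, with adjusted p up to 0.115. Timm9 itself had means of 9.70 ± 2.76 in naive cells and 12.6, 7.89, 9.40 and 10.7 at the doses in rising order, and passed no test among T cells. Timm8b, the Timm13 partner that was high enough to test, had 11.3 ± 7.25 in naive cells and means of 14.0 to 17.7 in activated cells. Timm29, a subunit of the TIM22 complex, had 7.67 ± 1.06 in naive cells and means of 4.32 to 6.06 in activated cells, and its change of −0.72 ± 0.37 at 0.01 µM had an adjusted p of 0.12.

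Timm22, the channel of the carrier translocase, had 39.3, 7.81 and 8.66 in naive cells, 10.2, 13.4 and 15.5 at 0.01 µM, 14.6, 38.3 and 13.3 at 0.1 µM, 22.6, 14.0 and 7.38 at 1.0 µM, and 13.6, 12.7 and 9.58 at 10 µM. One naive and one 0.1 µM library stood apart from the others of their groups, and no comparison among T cells passed. P13.9 cells had 44.5, 67.5 and 62.3, all above every T cell library, and Timm22 was −2.18 ± 0.50 at 10 µM against P13.9, with an adjusted p of 0.0019. The change from 0.01 to 10 µM was −0.12 ± 0.54, with an adjusted p of 0.948. At 0.01 µM the P13.9 share of the P13.9 level exceeds these Timm22 values in all 3 libraries, so subtraction sets them to 0 by construction and gives no usable change.

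In the group of the outer membrane translocase, which counts Tomm34, 2 of 8 tested members rose at 10 µM against naive, a share near the 24.3% of all genes. Tomm40, the channel, had 13.1, 0 and 2.17 in naive cells, 8.21, 7.88 and 9.11 at 0.01 µM, 9.15, 4.36 and 9.53 at 0.1 µM, 11.5, 6.02 and 8.92 at 1.0 µM, and 14.97, 12.3 and 16.3 at 10 µM. One naive library lay within the 10 µM range, and the 10 µM libraries lay above all other activated ones. Tomm40 rose by 2.12 ± 0.67 at 10 µM, with an adjusted p of 0.0131, and the call was lost without naive replicate 2 (adjusted p = 0.057). Its 3 naive reads gave a ratio of 4.32 (counting interval 1.45 to 21.2).

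Tomm40l, a second form of the channel, had 0 reads in all 3 naive libraries and 3.67, 4.80 and 5.55 at 10 µM, 3.15, 3.34 and 6.46 at 1.0 µM, 5.79, 4.36 and 4.14 at 0.1 µM, and 3.85, 4.87 and 5.74 at 0.01 µM. It was called higher at each dose, with adjusted p-values of 1.08e-05 to 2.15e-05 in limma. With 0 naive reads Tomm40l passed the filter only through activated libraries, so it had to differ and these p-values are no support. Against a floor of 3 reads over the naive group Tomm40l was at least 1.39-fold higher at 10 µM and at least 1.34-fold higher at 0.01 µM. The annotation lets Tomm40l overlap Apoa2 and Nr1i3 at its ends, and neither is a row of the table.

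Tomm70a, the receptor for carriers and other internal signals, had 19.7, 23.4 and 23.8 in naive cells, 27.8, 24.6 and 24.6 at 0.01 µM, 15.9, 18.3 and 16.2 at 0.1 µM, 15.7, 23.7 and 15.1 at 1.0 µM, and 16.1, 15.4 and 17.8 at 10 µM. The libraries at 10 µM lay below all those at 0.01 µM and all naive ones. The change from 0.01 to 10 µM was −0.61 ± 0.21, with an adjusted p of 0.0966, of 0.0187 in the 12 activated libraries alone, and of 0.0463 with the P13.9 share subtracted. The small subunit Tomm7 had the most naive reads of this role, 136, with 282, 125 and 132 per naive library and means of 226, 212, 253 and 218 at the doses in rising order. It was called 0.59 higher at 1.0 µM, with an adjusted p of 0.0374, and the call was lost in 5 of 6 fits that left out 1 library, without naive replicate 2 or 3 among them, with adjusted p up to 0.167. The receptors Tomm20 and Tomm22, the small subunit Tomm5 and the cytosolic cochaperone Tomm34 passed no test against naive cells, with 5, 13, 4 and 13 naive reads. Tomm6 was too low to test and had no naive read.

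Against P13.9 cells, 11 of 29 tested members differed at 10 µM, 6 higher and 5 lower, where 42.0% of 8178 genes were called, 15.6% higher and 26.4% lower. The members that were higher in T cells at 10 µM were Chchd10, Timm10b, Timm17a, Tomm22, Tomm40 and Chchd1, the last by 0.68 with an adjusted p of 0.0481. Lower were Timm22, Timm9 by −1.14, Tomm7 by −1.10, Timm10 by −0.96 and Hspa9 by −0.79, the last with an adjusted p of 0.00089. The count fell to 6 without P13.9 replicate 1 or 10 µM replicate C, to 7 without P13.9 replicate 3 or 10 µM replicate B, and to 5 without 10 µM replicate A. The calls of Chchd1, Timm10, Timm10b, Timm17a, Tomm22 and Tomm40 were among those lost. P13.9 and 10 µM lie in different runs of sample numbers and are different cell types, and run and cell type cannot be told apart here.

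Among 37 other genes of import, processing and quality control that are no members, 28 could be tested over the T cell libraries. Against naive cells 11 were higher and 3 lower at 10 µM, 12 and 3 at 1.0 µM, 12 and 3 at 0.1 µM, and 9 and 1 at 0.01 µM, beside the shares of all genes given for the members. Their median log2 change at 10 µM was 1.11. Phb2, a prohibitin that scaffolds inner membrane proteases, had means of 26.4 in naive cells and 92.4 at 10 µM and rose by 1.84 with an adjusted p of 7.94e-06. It was also the 1 gene of this list called between 0.01 and 10 µM, at 1.00 with an adjusted p of 0.0141. Gfer, the oxidase that recharges Chchd4, rose from 6.23 to 27.0, by 1.98 with an adjusted p of 9.74e-06. Romo1, a small subunit of the presequence translocase, rose from 13.3 to 35.7, by 1.35 with an adjusted p of 7.68e-05. Dnajc15, a J protein of the import motor, rose by 3.26 from 3 naive reads, a ratio of 9.29 (counting interval 3.15 to 45.3). Its relative Dnajc19 moved the other way, from 24.1 to 5.25, by −1.96 with an adjusted p of 0.000496. Mtx1, a metaxin of the outer membrane, had no naive read and was at least 2.19-fold higher at 10 µM. The protease gene Yme1l1 changed by −2.07 with an adjusted p of 0.00152.

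Of the 8 members too low to test over the T cell libraries, Timmdc1, Timm44, Timm23, Timm21, Chchd6, Tomm6, Chchd5 and Timm8a1, none exceeded 7.01 in a T cell library. Naive depth limited all members: 4 had no naive read, 7 had 1 to 3, 12 had 4 to 10 and 12 had more than 10. Counting intervals and floors cover counting error only. Of the 35 members 16 overlap another annotated gene, and the strand used in counting is not given in the sources used here, so reads of overlapping genes cannot be told apart.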

How the data were processed

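The authors deposited a signal value for each feature in each library, named there as counts normalized by median of ratios. FastQC 0.11.8, STAR 2.6.1d, HTSeq 0.9.1, DESeq2 and the mm10 build are named per the submitters' processing notes, with settings not given in the sources used here. RNA was taken up in TRIzol and made into QuantSeq libraries, per the labels' protocols. Dividing by the smallest step gave whole reads for 99.99965% of 284544 values within 1e-05 reads, with 1 exception, Tbx21 in a naive library. Of 15808 features, 111 had no gene name, held 12.5% to 15.7% of naive reads and 1.94% to 5.36% of others, and were left out. No 2 libraries were identical.

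The main test was limma 3.58.1 in R 4.3.3, with lmFit and eBayes with a trend on log2(value + 1). The added 1 shrinks changes of low genes, while averaging logs over coarse naive values can enlarge them. Log2 changes of low genes may therefore lie below or above their read ratios. A gene was tested if 3 or more of the 15 T cell libraries reached a value of 5 (7263 genes), or 3 or more of all 18 against P13.9 (8178 genes). The groups shared 1 estimate of the spread, and the Benjamini-Hochberg adjustment ran over all genes tested. Alternatives were pseudocount 4, no filter, a mean of at least 20, quantile normalization, array weights, a replicate block, edgeR 4.0.16 and DESeq2 1.42.0 on recovered reads, the 12 activated libraries alone, subtraction of the P13.9 share, and leaving out each library. The share is the median, over 6 fibroblast markers whose P13.9 mean reached 5, of the library's value over that mean. The scripts were tested on simulated data. Ratios of reads carry exact 95% counting intervals, and a group with no read was set to a floor of 3 reads.

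The members and lists were chosen with earlier results of these data known, and 10 of 11 comparisons were fixed in the plan, all but that of end and middle doses. Any member could be named. Full statistics went to Chchd10, Hspd1, Hspe1, Hspa9 and up to 8 called members in each direction. Of the other 37 genes the plan foresaw up to 6 called ones per comparison by smallest adjusted p, and the naming did not keep strictly to this number. Promoter letters come from RefSeq with GRCm38. A planned count of cysteine motifs in proteins was not done.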

Additional observations from a re-analysis of the deposited data

How the results depend on the processing

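The counts of members called against naive cells were 11, 9, 10 and 9 at 10, 1.0, 0.1 and 0.01 µM. They became 4, 5, 4 and 5 with a minimum mean of 20, where fewer members were tested, and 18, 14, 16 and 16 with edgeR. After quantile normalization they were 19, 14, 15 and 18. Of all 7263 genes, 1765, 1692, 1808 and 1578 were called higher at these doses in the main fit. With edgeR 2155, 2005, 2071 and 1930 were higher, and after quantile normalization 2301, 2206, 2264 and 2052. With a minimum mean of 20, 550, 536, 545 and 436 of 1438 genes were higher. Between 10 and 0.01 µM the 1 member became 10 with array weights, 8 with edgeR, 8 with DESeq2, 5 in the 12 activated libraries and 3 with the P13.9 share subtracted. Of all genes 8.15% were called there, and 45.9%, 34.8%, 32.1%, 32.5% and 8.09% under these 5 alternatives. Under all but the subtraction the calls of members and of all genes rose together. With the subtraction only the members' count rose. Calls over all genes rose likewise between 0.1 and 0.01 µM, from 5.59% to 32.2% with array weights and 29.1% in the 12 libraries, and between 1.0 and 0.01 µM, from 4.3% to 28.4% and 22.9%. Between 0.1 and 0.01 µM the 2 members became 1 with no filter, 8 with array weights and 1 with the replicate block. They became 5 with edgeR, 5 with DESeq2 and 7 in the 12 activated libraries. Over all genes the calls higher and lower went from 158 and 248 to 135 and 307 with no filter (15688 genes tested). They became 77 and 112 with the replicate block, 822 and 924 with edgeR, and 874 and 671 with DESeq2. Between 10 and 1.0 µM the 0 members became 3 with array weights, 3 with edgeR, 6 with DESeq2 and 3 in the activated libraries. Between 10 and 0.1 µM they became 3, 2, 2 and 2. With array weights, 34 of all 7263 genes were called higher and 111 lower between 10 and 1.0 µM. Between 10 and 0.1 µM 51 were higher and 224 lower. The main fit had 1 and 5, and 1 and 6. Between 1.0 and 0.01 µM the 1 member became 2 after quantile normalization, 5 with array weights and 0 with the replicate block. It became 4 with edgeR, 5 with DESeq2, 4 in the activated libraries and 2 with the P13.9 share subtracted. That 1 member, Hspa9, was lower, and the 2 after subtraction, Tomm7 and Timm22, were higher. Of all genes, 119 were called higher and 193 lower in the main fit. These became 211 and 303 after quantile normalization and 61 and 103 with the replicate block. They were 780 and 843 with edgeR, 809 and 629 with DESeq2 and 223 and 140 with the share subtracted. Timm22, which subtraction sets to 0 at 0.01 µM, is also among the 3 between 10 and 0.01 µM, where its change of −0.12 became 3.56. For end against middle doses the 1 member became 2 with pseudocount 4, 0 with no filter, 2 after quantile normalization and 3 with array weights. It became 0 with the replicate block, 3 with edgeR, 4 with DESeq2, 4 in the activated libraries and 2 with the share subtracted. Over all genes the calls higher and lower were 10 and 45 in the main fit. In the same order they were 31 and 65, 7 and 26, 40 and 64, and 442 and 601. With the replicate block they were 2 and 21, with edgeR 189 and 422, and with DESeq2 149 and 421. In the activated libraries they were 190 and 411, and with the share subtracted 28 and 94. Against P13.9 the 11 members became 6 with a minimum mean of 20, 17 with array weights and 17 with edgeR. Apart from the fewer members tested and the fewer libraries fitted, the cause was not tested.

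Leaving out 1 library gave 9 to 14 members at 10 µM against naive, 7 to 15 at 1.0 µM (15 without naive replicate 1), 6 to 14 at 0.1 µM (6 without 0.1 µM replicate B) and 6 to 12 at 0.01 µM. Between doses it gave 1 to 1 for 10 against 0.01 µM, 0 to 1 for 0.1 against 0.01 µM, 0 to 0 for 10 against 1.0 and against 0.1 µM, 0 to 1 for 1.0 against 0.01 µM and 0 to 1 for end against middle doses. Against P13.9 it gave 5 to 8. For 79 pairs of a member and a comparison, those called or described in full, 692 values came from the other alternatives: 562 kept their direction and side of the threshold, 84 newly passed, 46 no longer passed and 0 changed sign. Over all 2612 values of tested members, 7 changed sign and passed only under the alternative, 6 of Chchd2 against naive cells and 1 of Timm22.

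The replicate letters A to C were a block in 1 fit, in which naive and P13.9 libraries, whose columns carry numbers, had no letter. Over 18 pairs of libraries with the same letter the correlation of deviations ran from −0.35 to 0.354, with 4 above 0.1. Of 12 libraries, 2 correlated best with their own letter. No pairing by letter was seen, but deviations from the means of so few libraries could miss it. The shallow naive libraries limit every comparison against them.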
